A study of Mus musculus with 4 samples.

Results

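Interferon response and class I antigen presentation genes were examined in cultured satellite cells, the muscle stem cells (MuSC), with and without the arginine methyltransferase Prmt5. The 39 genes were named by role, as interferon-stimulated genes, sensors of foreign nucleic acid or parts of the class I presentation pathway. The rule uses no measured value, but the genes were chosen with earlier results of these data known. Of the 39, 36 were found by symbol among the 20065 genes of the deposited table. Mx1, Oas1a and Ifi44 were not analysed here. A mean of at least 5 normalized counts over the libraries was reached by 32 members, and Zbp1, Ifit3, Mx2 and Psmb9 stayed under it and were not tested.

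The cells came from limb and trunk muscles of adult mice on the C57BL/6 background and were cultured before RNA was taken. Control cells were Pax7CreERT2/Prmt5+/loxP, and Prmt5sKO cells were Pax7CreERT2/Prmt5loxP/loxP, both with tamoxifen. The labels give no route for tamoxifen. The study states that the MuSC it sequenced were treated with the active form of tamoxifen, which its methods describe for cells in culture. The controls, labelled wild type, therefore carried the Cre driver, 1 floxed Prmt5 allele and the same agent. Cre is driven by Pax7, the transcription factor that marks MuSC, so cells without Pax7 activity would keep the gene. Each group had 2 libraries of RNA depleted of ribosomal RNA. The labels do not say whether the libraries of a group came from separate animals or cultures, and the p-values below measure the spread between these libraries. The comparison asks which genes are expressed differently when MuSC lose Prmt5.

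Library totals ranged from 13240754 to 20047430 reads. The libraries carry no replicate number and are named deeper or shallower within their group. Values are TMM-normalized counts (scaled by a trimmed mean of log ratios between libraries), given with the deeper library of a group first. Prmt5 (ENSMUSG00000023110), as the check of the labels, was at 2273 and 2906 in control and at 244 and 202 in Prmt5sKO. Within each group the libraries differed in sex-linked genes, with Xist at 8668 and 23.3 in control and at 8.15 and 5655 in Prmt5sKO. Y-linked Ddx3y was at 0 and 787 in control and at 1176 and 0 in Prmt5sKO, so the libraries of a group did not come from 1 and the same animal. The shallower Prmt5sKO library also stood apart in the summed level of 10 of 10 genes of differentiating muscle, which was 12110 and 6617 in control and at 18530 and 257400 in Prmt5sKO. Of 10 satellite cell and myoblast genes, 9 were found. They summed to 57360 and 50580 in control and to 57410 and 81630 in Prmt5sKO. Of the 8 tested, 6 overlapped between the groups, among them Pax7, between 2570 and 3664 in every library. Vcam1 was separate and higher in Prmt5sKO. Myf5 was separate and lower, at 1630 and 1772 in control and at 1305 and 1252 in Prmt5sKO. Des was at 14906 and 12514 in control and at 14372 and 32171 in Prmt5sKO. The summed level of smooth muscle and pericyte genes (5 of 5 found) was 10170 to 11310 in control and 17700 to 45530 in Prmt5sKO. Acta2 made up most of this sum, at 8133 and 8389 in control and at 12862 and 39358 in Prmt5sKO. Both Prmt5sKO libraries were above both controls for 4 of the 5 genes. Myh11 overlapped, at 10.2 and 9.08 in control and at 6.67 and 10.1 in Prmt5sKO. Endothelial genes (6 of 7) summed to 124 to 169 in control and 57.3 to 95.6 in Prmt5sKO, but the 3 genes tested did not share a direction. Kdr and Pecam1 were separate and lower, with Kdr at 67.8 and 59.7 in control and at 19.3 and 17.1 in Prmt5sKO. Tek was separate and higher, at 13.6 and 27.2 in control and at 43.0 and 29.2 in Prmt5sKO. Fibroblast genes (8 of 9) lay between 236 and 502 and glial genes (4 of 4) between 28.2 and 52.0, with overlapping groups for the first. The part of these shifts in the results below was not tested.

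Interferons are secreted proteins that warn cells of infection. Type I interferons act through the receptor chains Ifnar1 and Ifnar2 and the Jak kinases on a complex that holds Stat2 and Irf9 and binds the interferon-stimulated response element (ISRE), while interferon gamma acts mainly on the gamma-activated site (GAS). The induced genes block steps of viral growth, raise the sensing of viral RNA and load more peptide onto class I molecules at the cell surface. Muscle cells keep class I molecules low at rest and raise them when exposed to interferon.

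The members were first described by the sequence in front of their start sites, which the choice of members did not use. Promoter windows from 250 bases before to 50 bases after the start were present in RefSeq (GRCm38.p6) for 31 of the 39. The ISRE core GAAANNGAAA, or TTTCNNTTTC on the other strand, lay in the windows of 13 of the 31 (41.9%), against 3.99% of 27025 genes with a window. The GAS core TTCNNNGAA, which is its own reverse complement, lay in 8 of the 31 (25.8%), against 9.55% of genes. A match is a match of letters and was not examined as a binding site. The windows of 30 bases shown here belong to members whose values are given below, with the ISRE core in capitals. Isg15 and Ifit1 show cores repeated within a short stretch, and Rsad2, Stat2 and B2m each hold a single core.
Isg15 (chr4:156200871-156200900, minus strand): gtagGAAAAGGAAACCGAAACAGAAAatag
Ifit1 (chr19:34640785-34640814, plus strand): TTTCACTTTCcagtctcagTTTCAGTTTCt
Rsad2 (chr12:26456553-26456582, minus strand): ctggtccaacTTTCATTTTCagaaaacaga
Stat2 (chr10:128270266-128270295, plus strand): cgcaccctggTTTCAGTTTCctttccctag
B2m (chr2:122147538-122147567, plus strand): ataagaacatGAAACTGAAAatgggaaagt

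For the GAS core, in capitals below, Irf1 and Samhd1 are shown because they are the members with this match and an unadjusted p under 0.05. The core began 90 bases before the start of Irf1 and 235 bases before that of Samhd1.
Irf1 (chr11:53769914-53769943, plus strand): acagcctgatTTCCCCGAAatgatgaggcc
Samhd1 (chr2:157135312-157135341, minus strand): acaccaccctTTCGGAGAAacacaagggcg

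The members were detected over a wide range of levels, as plotted for every library. Per kilobase of exon, the mean over the 4 libraries ran from 0.748 normalized counts for Zbp1 to 1383 for B2m, with a median of 13.5. The highest were B2m, the invariant chain of class I molecules, at 1383 and H2-D1, a class I heavy chain, at 227 normalized counts per kilobase. They were followed by Trim25 at 191, H2-K1 at 155 and Ifi27 at 142. Of the 32 members tested, 9 had a mean under 20 normalized counts, among them Isg15, Usp18 and Oasl2, which are commonly read as a sign of an interferon response. In the plot, the class I chains lie far to the right, and most of the low, widely spread points belong to antiviral effectors.

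**Figure D1:**
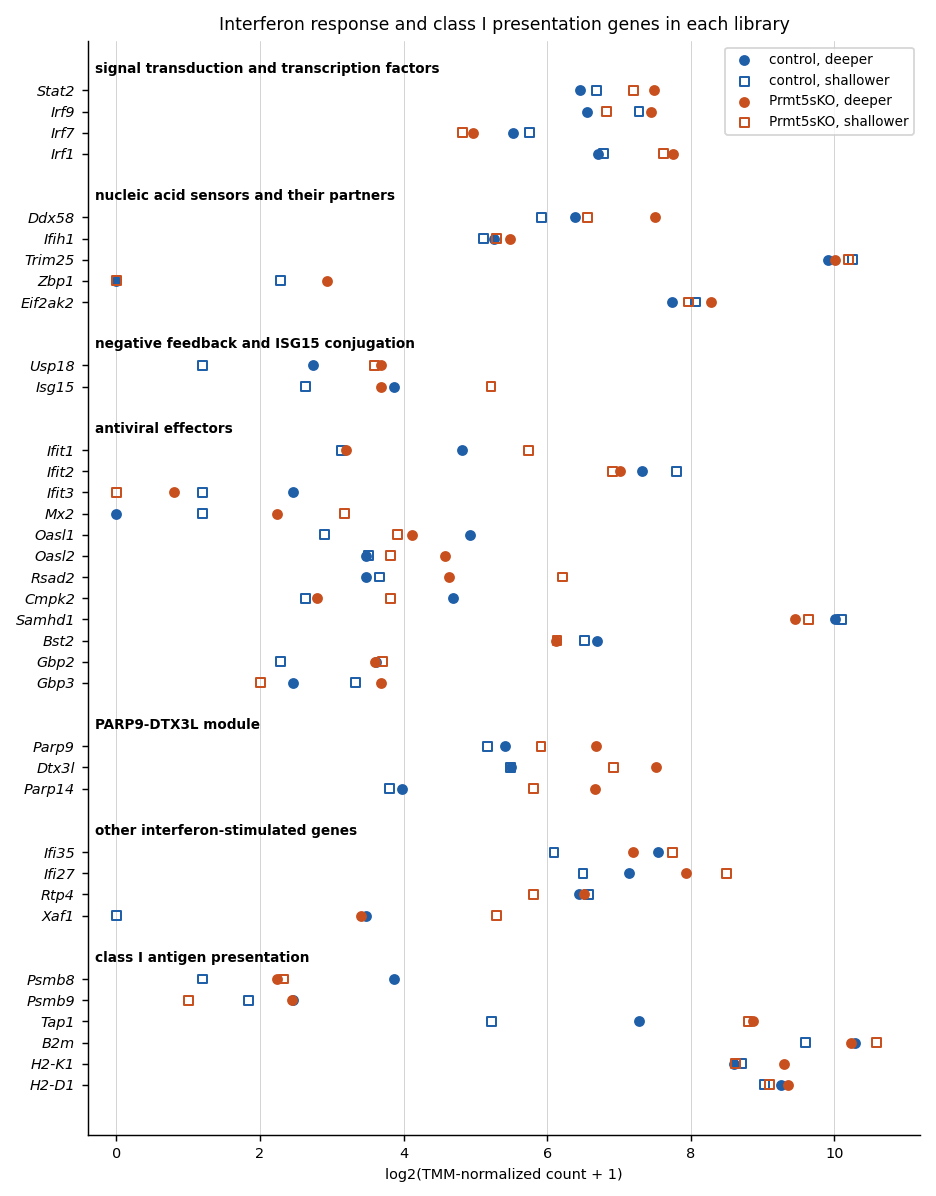
Level of the 36 members found, on a horizontal axis of log2(TMM-normalized count + 1), grouped by role, with filled circles for the deeper and open squares for the shallower library of each group and control in blue, Prmt5sKO in orange. Tap1, Dtx3l, Parp14, Irf1 and Ifi27 have both Prmt5sKO points to the right of both control points, whereas Samhd1 has both to the left.

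No member passed the test. Over all 16212 genes tested by limma-voom, 0 (0%) were called at an adjusted p of at most 0.05 with at least a 2-fold change, and 0 were called by limma-trend, while 975 were higher and 1126 lower at an unadjusted p under 0.05. The deleted gene Prmt5 was thus not called either, so the lack of calls is no result about the members. The study itself reported up- and downregulated genes, from its own DESeq2 comparison. The smallest adjusted p of a member was 0.251, for Tap1. At an unadjusted p under 0.05, 5 of 32 members were higher in Prmt5sKO (Tap1, Dtx3l, Parp14, Ifi27 and Irf1), where 6.01% of all genes were. Samhd1 was the 1 member lower at this level, where 6.95% of all genes were. Both Prmt5sKO libraries lay above both control libraries for 12 of the 32 members, against 25.2% of all genes, and below them for 4, against 23.6%. The groups overlapped for the other 16.

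The median log2 fold change over the 32 members was 0.39, beside 0.02 over all genes tested, and the members ranged from -0.75 (Irf7) to 2.71 (Xaf1). At least a 2-fold higher level in Prmt5sKO was found for 9 members, where 12.8% of all genes had one, and at least a 2-fold lower level for 0, where 9.05% of all genes had one. Without the deeper control library the median was 0.80, and the number of members higher at an unadjusted p under 0.05 was 2 without the deeper control library and 1 without the shallower control library. It was 8 without the shallower Prmt5sKO library, the one with the high muscle genes. In that fit Ddx58, Parp9 and H2-K1 joined the other 5. Members that were higher in the library with high Xist in both groups numbered 10 of 32, where 28.1% of all genes had this pattern, and Isg15, Ifit1, Xaf1, B2m and Ifi27 were among them. In RNA from a bulk culture, more cells that express a gene and more RNA of it per cell cannot be told apart.

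**Figure D2:**
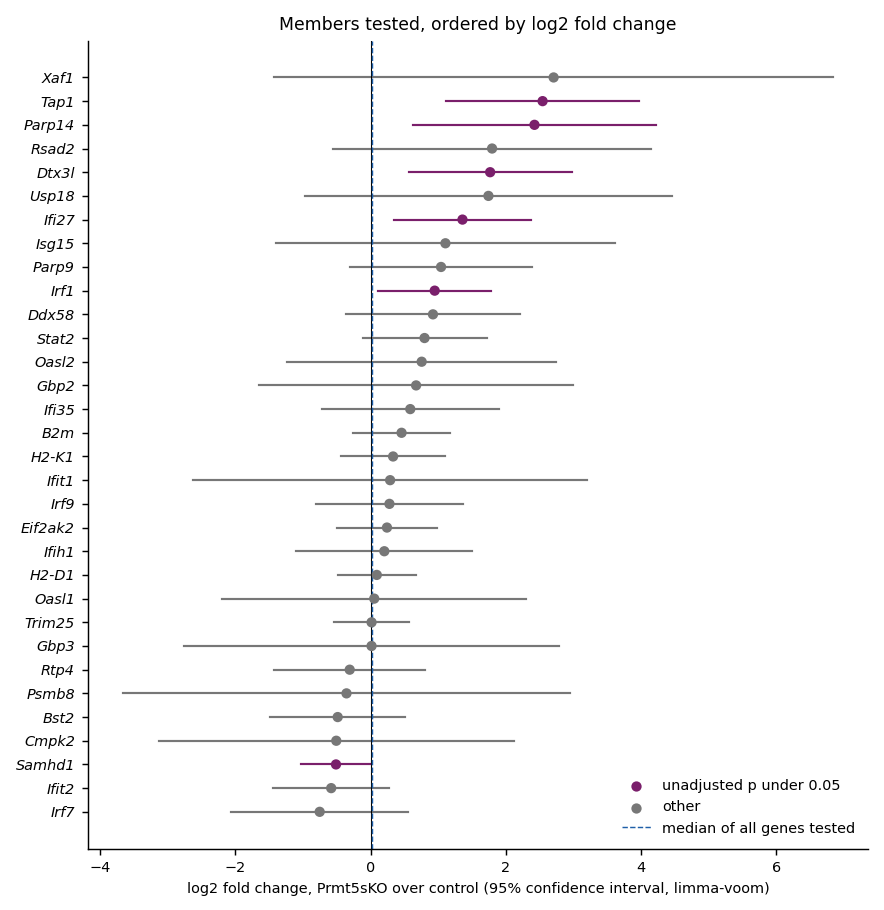
Log2 fold change of Prmt5sKO over control for the 32 members tested (horizontal axis), with bars for the 95% confidence interval from limma-voom, members with an unadjusted p under 0.05 in purple and the median of all genes as a dashed line. The 5 purple members on the right have intervals above 0, while Xaf1, with the highest estimate of 2.71, has an interval from -1.43 to 6.84.

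Among the transcription factors that carry the signal to the nucleus, 1 of 4 differed at an unadjusted p under 0.05. Of all genes, 6.01% were higher and 6.95% lower at this level. Irf1 (ENSMUSG00000018899, chromosome 11, 53770014 to 53778374), an interferon-inducible factor that acts on class I and immunoproteasome genes, was at 104 and 109 normalized counts in control and at 215 and 195 in Prmt5sKO. Both Prmt5sKO values stood well above the control values, and the libraries of each group lay close together. The log2 fold change was 0.95 (SE 0.34, unadjusted p = 0.0323, adjusted p = 0.347, limma-voom). The unadjusted p was 0.153 without the deeper control library, 0.120 without the shallower one and 0.0811 without the deeper Prmt5sKO library, with log2 fold changes from 0.87 to 1.01 over the libraries left out. The GAS core printed above for Irf1 lies in its promoter window. Stat2, which carries the type I signal with Irf9, was at 87.0 and 102 in control and at 179 and 147 in Prmt5sKO, with a log2 fold change of 0.80 (SE 0.38, adjusted p = 0.419, limma-voom).

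Irf9, which gives that complex its DNA contact, overlapped between the groups, with a log2 fold change of 0.28. Irf7, the factor that amplifies type I interferon production, was at 45.2 and 53.2 in control and at 30.4 and 27.2 in Prmt5sKO. Its direction was opposite to that of Irf1 and Stat2, and its log2 fold change was -0.75 (SE 0.54, 95% confidence interval -2.06 to 0.55, adjusted p = 0.561, limma-voom). Stat2, Irf9 and Irf7 are named in full because the list is small, after their values were seen.

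Among the sensors, limma-voom gave 0 of 4 members tested with an unadjusted p under 0.05. Of all genes, 6.01% were higher and 6.95% lower at this level. Trim25, the ubiquitin ligase that activates the RNA sensor encoded by Ddx58, was at 966 and 1222 in control and at 1026 and 1171 in Prmt5sKO. The groups overlapped, and the log2 fold change was 0.01, with a 95% confidence interval from -0.54 to 0.56. Ddx58 itself (RIG-I), Ifih1 (MDA5) and Eif2ak2, the kinase that halts translation on double-stranded RNA, had log2 fold changes of 0.92, 0.20 and 0.24. Zbp1, a sensor of Z-form nucleic acid, was at 0 and 3.89 normalized counts in control and at 6.67 and 0 in Prmt5sKO. The 0 values allow up to 3.39 normalized counts in the deeper control library and 3.02 in the shallower Prmt5sKO library, so no difference was detectable at this depth. These limits stand for 3 reads and cover counting error only.

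Usp18, which removes ISG15 from proteins and damps the type I receptor, was at 5.65 and 1.30 in control and at 11.9 and 11.1 in Prmt5sKO. The groups did not overlap, but the control values stood for 5 reads and 1 read, and the log2 fold change of 1.74 had an SE of 1.12 (adjusted p = 0.524, limma-voom). Isg15, the ubiquitin-like protein itself, was at 13.6 and 5.19 in control and at 11.9 and 36.2 in Prmt5sKO. Only the shallower Prmt5sKO library was above the rest, and the log2 fold change was 1.11 (SE 1.03, adjusted p = 0.657, limma-voom) with it and 0.40 without it. Its promoter holds 3 overlapping ISRE cores in the stretch printed above. Isg15 is described for its role, after its values were seen.

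Antiviral effectors were the largest role, with 12 of 14 genes found and 10 tested. Their median log2 fold change was 0.03, beside 0.02 over all genes, with 6 positive and 4 negative. Samhd1 (ENSMUSG00000027639, chromosome 2, 157097533 to 157135265), a hydrolase of deoxynucleotides that starves reverse transcription, was at 1032 and 1101 in control and at 701 and 800 in Prmt5sKO. Both Prmt5sKO libraries were below both controls, with little spread inside a group. The log2 fold change was -0.51 (SE 0.21, unadjusted p = 0.0494, adjusted p = 0.384, limma-voom). With scaling to the library size alone, with upper-quartile scaling, with no filter, with limma-trend, or without any 1 library other than the shallower Prmt5sKO library, its unadjusted p was no longer under 0.05.

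Rsad2 (viperin), a radical enzyme that makes a chain-terminating nucleotide, was at 10.2 and 11.7 in control and at 23.7 and 73.4 in Prmt5sKO. The groups did not overlap, and the Prmt5sKO libraries differed from each other more than the deeper one differed from control. The log2 fold change was 1.80 (SE 0.97, adjusted p = 0.466, limma-voom). Cmpk2, a mitochondrial nucleotide kinase and the neighbour of Rsad2 in many genomes, was at 24.9 and 5.19 in control and at 5.93 and 13.1 in Prmt5sKO. The control values enclosed both Prmt5sKO values, unlike those of Rsad2.

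The Ifit proteins bind foreign RNA ends and block their translation. Ifit1 was at 27.1 and 7.78 in control and at 8.15 and 52.3 in Prmt5sKO, so that the libraries of each group differed by more than the group means. Ifit2 was at 159 and 222 in control and at 128 and 120 in Prmt5sKO, with a log2 fold change of -0.58 (SE 0.35, adjusted p = 0.506, limma-voom). Ifit3 was at 4.52 and 1.30 in control and at 0.741 and 0 in Prmt5sKO, which is at or under 4 reads in every library. About 51.2% of the 50-base stretches of Ifit3 are shared with Ifit3b, so its reads are also uncertain. No direction can be read for Ifit3 at this depth.

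Oasl1, which restrains the translation of Irf7, was at 29.4 and 6.48 in control and at 16.3 and 14.1 in Prmt5sKO. As with Cmpk2, the control libraries enclosed the Prmt5sKO libraries. Bst2 (tetherin), which holds virus particles at the cell surface, was at 103 and 90.8 in control and at 68.9 and 69.4 in Prmt5sKO, a log2 fold change of -0.49 (SE 0.41, adjusted p = 0.624, limma-voom). Bst2, Ifit2, Irf7 and Samhd1 are the 4 tested members with both Prmt5sKO libraries below both controls, and the first 3 are named because there were so few. Mx2, a dynamin-like antiviral protein that this annotation lists as a polymorphic pseudogene, was at 0 and 1.30 in control and at 3.71 and 8.05 in Prmt5sKO. Oasl2, Gbp2 and Gbp3 had log2 fold changes between 0.01 and 0.76.

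Parp9 and Dtx3l form a complex that adds ubiquitin and ADP-ribose in the response to DNA damage and to interferon, and Parp14 is a related ADP-ribosyltransferase. Both Prmt5sKO libraries were above both controls for 3 of the 3 genes, beside 25.2% of all genes. At an unadjusted p under 0.05, 2 of 3 were higher, beside 6.01% of all genes, and the median log2 fold change was 1.77. Dtx3l (ENSMUSG00000049502) was at 44.1 and 44.1 in control and at 182 and 121 in Prmt5sKO. The control libraries were alike and both Prmt5sKO libraries were far above them, with a log2 fold change of 1.77 (SE 0.49, unadjusted p = 0.0115, adjusted p = 0.282, limma-voom).

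Parp14 (ENSMUSG00000034422) was at 14.7 and 13.0 in control and at 101 and 55.3 in Prmt5sKO. Its log2 fold change of 2.42 (SE 0.74, unadjusted p = 0.0165, adjusted p = 0.302, limma-voom) is a 5.37-fold higher level. Parp9 (ENSMUSG00000022906) was at 41.8 and 35.0 in control and at 102 and 59.3 in Prmt5sKO, with a smaller log2 fold change of 1.04 (SE 0.55, adjusted p = 0.462, limma-voom). In each of the 3 genes the deeper Prmt5sKO library was the higher one, the opposite of the muscle genes, which were highest in the shallower library.

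These genes are neighbours on chromosome 16 (GRCm38). Parp14 lies at 35832874 to 35871544 on the minus strand, Dtx3l at 35926511 to 35939151 on the minus strand and Parp9 at 35938470 to 35972605 on the plus strand. Dtx3l and Parp9 start head to head and overlap by 682 bases. Reads in the overlap cannot be told apart without strand, and the counting left out reads that overlapped several genes. The strand setting of the counting was not given in the sources used here. Leaving out any 1 library gave log2 fold changes from 1.44 to 2.03 for Dtx3l and from 1.95 to 2.81 for Parp14, with unadjusted p-values up to 0.0603 and 0.0759 (limma-voom).

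Of the other interferon-stimulated genes, 1 of 4 tested was higher at an unadjusted p under 0.05, beside 6.01% of all genes. Ifi27 (ENSMUSG00000064215, chromosome 12, 103434211 to 103440239), a small membrane protein whose gene is strongly induced by type I interferon, was at 140 and 89.5 in control and at 244 and 361 in Prmt5sKO. The groups were separate, and the log2 fold change was 1.36 (SE 0.42, unadjusted p = 0.0170, adjusted p = 0.305, limma-voom). Without the shallower control library the unadjusted p was 0.0987. Between the libraries with high Xist the log2 difference was 1.36, and between those with low Xist it was 1.44.

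Xaf1, a partner of the apoptosis inhibitor XIAP, was at 10.2 and 0 in control and at 9.63 and 38.2 in Prmt5sKO. Its high estimate of 2.71 (SE 1.69, adjusted p = 0.517, limma-voom) was 0.78 without the control library at 0 reads and 1.83 without the shallower Prmt5sKO library, and it reached 4.81 without the deeper control library. Ifi35 and Rtp4, a chaperone of membrane receptors, overlapped between the groups, with log2 fold changes of 0.59 and -0.31. About 11.6% of the 50-base stretches of Rtp4 are shared with Gm45338.

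Class I presentation starts with peptides cut by the proteasome, which the Tap1 and Tap2 transporter moves into the endoplasmic reticulum, where they are loaded onto a heavy chain and B2m. Of the 5 members of this pathway tested, 1 was higher and 0 lower at an unadjusted p under 0.05, beside 6.01% and 6.95% of all genes. The 1 was Tap1 (ENSMUSG00000037321, chromosome 17, 34187553 to 34197225). It was at 155 and 36.3 in control and at 468 and 445 in Prmt5sKO. Both Prmt5sKO libraries were far above both controls, although the controls differed from each other by more than 4-fold. The log2 fold change was 2.54 (SE 0.59, unadjusted p = 0.00472, adjusted p = 0.251, limma-voom), or 5.83-fold. It was 1.57 without the shallower control library and 3.62 without the deeper one.

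The class I chains themselves differed less. B2m was at 1248 and 774 in control and at 1202 and 1535 in Prmt5sKO, with overlapping groups and a log2 fold change of 0.46 (95% confidence interval -0.26 to 1.18). H2-K1 was at 386 and 416 in control and at 630 and 392 in Prmt5sKO, with only the deeper Prmt5sKO library above the rest and a log2 fold change of 0.33. H2-D1 was at 610 and 523 in control and at 656 and 549 in Prmt5sKO, with a log2 fold change of 0.09 (95% confidence interval -0.49 to 0.67). About 9.63% of the 50-base stretches of H2-K1 and 12.8% of those of H2-D1 are shared with other class I genes, so part of their reads may be missing or misplaced. The B2m locus lies wholly within Patl2 on the other strand.

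The immunoproteasome members were near the limit of detection. Psmb8, an inducible catalytic subunit, was at 13.6 and 1.30 in control and at 3.71 and 4.02 in Prmt5sKO. Psmb9, another such subunit, was at 4.52 and 2.59 in control and at 4.45 and 1.01 in Prmt5sKO, and its start overlaps that of Tap1 by 212 bases on the opposite strand. Tap1 and Psmb9 thus share a start region, but in Prmt5sKO Tap1 was at 445 normalized counts or more and Psmb9 at 4.45 or less.

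The other genes of class I presentation were followed from a list of 19, of which 17 were tested. At an unadjusted p under 0.05, 3 were higher and 0 lower, beside 6.01% and 6.95% of all genes. The median log2 fold change was 0.35, beside 0.02 over all genes, with 12 positive and 5 negative, down to -0.93. Both Prmt5sKO libraries were above both controls for 10 of the 17 and below them for 1, beside 25.2% and 23.6% of all genes, and 6 overlapped. Tap2, the partner of Tap1, was at 131 and 68.7 in control and at 203 and 255 in Prmt5sKO, with a log2 fold change of 1.22 (SE 0.43, adjusted p = 0.336, limma-voom). Tapbp (tapasin), which bridges the transporter and the heavy chain, was at 370 and 239 in control and at 608 and 573 in Prmt5sKO, a log2 fold change of 0.98 (SE 0.29, adjusted p = 0.299, limma-voom). Psme2, a subunit of the proteasome activator PA28, was at 304 and 328 in control and at 527 and 579 in Prmt5sKO, a log2 fold change of 0.80 (SE 0.25, adjusted p = 0.305, limma-voom).

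Nlrc5, the main activator of class I genes, was at 37.3 and 45.4 in control and at 77.8 and 109 in Prmt5sKO, with a log2 fold change of 1.13 (SE 0.50, adjusted p = 0.402, limma-voom). Tap1, Tap2, Tapbp, Psme2 and Nlrc5 thus had separate groups, higher in Prmt5sKO, and the abundant chains overlapped, as the plot of this pathway shows. Tapbp and Psme2 are shown for the smallest p in their list, and Tap2 and Nlrc5 as its defining genes. They do not stand for the whole list, and the chains were not picked by p. A test of the difference between these genes and the chains was not made. For the constitutive proteasome subunits Psmb5, Psmb6 and Psmb7, limma-voom gave 0 of 3 with an unadjusted p under 0.05. Of all genes, 6.01% were higher and 6.95% lower at this level.

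**Figure D3:**
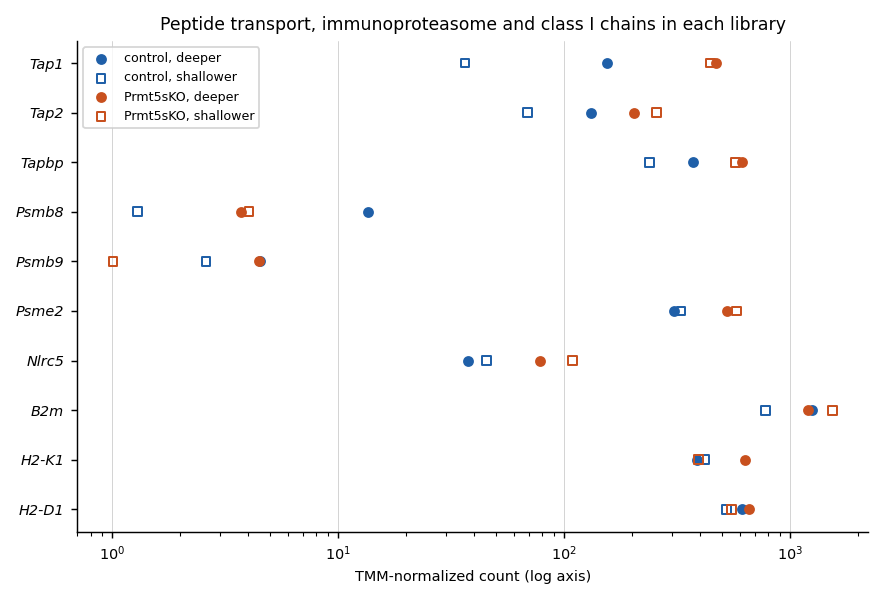
TMM-normalized count (horizontal log axis) of 6 members and 4 further genes of class I presentation in each library, with filled circles for the deeper and open squares for the shallower library, control in blue and Prmt5sKO in orange. Tap1, Tap2, Tapbp, Psme2 and Nlrc5 have both Prmt5sKO points to the right of both control points, while B2m, H2-K1 and H2-D1 overlap and Psmb8 and Psmb9 stay at or under 13.6.

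Upstream of the members, the ligands were hardly seen. Of 16 interferon genes, Ifna13 was the 1 found, at 4.52 and 2.59 in control and at 3.71 and 0 in Prmt5sKO. Ifnb1 and Ifng were among those not analysed here. All 11 receptor and Jak-Stat genes were tested, with 2 higher at an unadjusted p under 0.05, beside 6.01% of all genes. Ifnar1 overlapped, with a log2 fold change of 0.20. Ifngr2, a chain of the interferon gamma receptor, was at 322 and 283 in control and at 569 and 525 in Prmt5sKO, with a log2 fold change of 0.85 (SE 0.25, adjusted p = 0.295, limma-voom). Stat3, which mainly serves other cytokines, was at 798 and 560 in control and at 1232 and 1971 in Prmt5sKO, a log2 fold change of 1.21 (SE 0.32, adjusted p = 0.276, limma-voom). It was highest in the library with the high muscle genes.

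Of 13 upstream sensors, adaptors and Irf kinases tested, 1 was higher and 1 lower at an unadjusted p under 0.05, beside 6.01% and 6.95% of all genes. Cgas, the sensor of cytosolic DNA, was at 173 and 157 in control and at 64.5 and 58.3 in Prmt5sKO, a log2 fold change of -1.42 (SE 0.39, adjusted p = 0.276, limma-voom). Mavs, the adaptor of the RNA sensors Ddx58 and Ifih1, was at 510 and 506 in control and at 899.5 and 708 in Prmt5sKO, a log2 fold change of 0.66 (SE 0.24, adjusted p = 0.351, limma-voom). Cgas and Mavs are shown for the smallest p and do not stand for DNA or RNA sensing as a whole. The RNA sensor Dhx58 was also lower, at 64.4 and 67.4 in control and at 37.0 and 37.2 in Prmt5sKO. Tmem173, the adaptor in DNA sensing, overlapped, with a log2 fold change of -0.09. Dhx58 and Tmem173 are named after their values were seen. Both Prmt5sKO libraries were above both controls for 6 of the 13 and below them for 4, beside 25.2% and 23.6% of all genes.

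Of 8 negative regulators tested, 1 was higher and 1 lower at an unadjusted p under 0.05, beside 6.01% and 6.95% of all genes. Socs1, an inhibitor of the Jak kinases, was lower, at 47.5 and 54.5 in control and at 2.96 and 29.2 in Prmt5sKO. The Prmt5sKO libraries differed widely from each other, and the log2 fold change of -2.54 had an SE of 1.01 (adjusted p = 0.375, limma-voom). Ptpn6 (SHP-1), a phosphatase best known in blood cells, was at 45.2 and 13.0 in control and at 91.9 and 80.5 in Prmt5sKO, a log2 fold change of 1.76 (SE 0.67, adjusted p = 0.360, limma-voom). Beside it, the summed level of the 5 of 10 haematopoietic markers found was 127 and 150 in control and at 88.2 and 103 in Prmt5sKO. Cd68 was the largest part of this sum, at 99.4 and 112 in control and at 54.8 and 50.3 in Prmt5sKO. The other 4 overlapped, and of the 5 markers 2 had positive and 3 negative log2 fold changes. Itgam was at 4.52 and 0 in control and at 3.70 and 22.1 in Prmt5sKO. The cells that expressed Ptpn6 were not tested. Ptprc, Adgre1, Tyrobp, Cd3e and Nkg7 were the 5 markers not analysed here.

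A longer list of 55 further interferon-stimulated genes, also chosen with earlier results of these data known, was set beside the members. Of 34 tested, 7 were higher and 0 lower at an unadjusted p under 0.05, beside 6.01% and 6.95% of all genes, with a median log2 fold change of 0.70. Both Prmt5sKO libraries were above both controls for 16 of the 34 and below them for 2, beside 25.2% and 23.6% of all genes, and the groups overlapped for the other 16. Igtp (Irgm3), an immunity-related GTPase, was at 4.52 and 5.19 in control and at 60.8 and 110 in Prmt5sKO, a log2 fold change of 3.87 (SE 0.98, adjusted p = 0.264, limma-voom). Irgm2, of the same family, was at 15.8 and 6.48 in control and at 71.9 and 61.3 in Prmt5sKO, a log2 fold change of 2.61 (SE 0.74, adjusted p = 0.286, limma-voom).

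Ifitm3, which blocks the entry of viruses at the membrane, was at 662 and 261 in control and at 1573 and 1246 in Prmt5sKO, a log2 fold change of 1.73 (SE 0.42, adjusted p = 0.262, limma-voom). Trim21, the cytosolic antibody receptor, was at 19.2 and 32.4 in control and at 86.0 and 78.4 in Prmt5sKO. Over the 96 genes tested in all the pathway lists, 17 were higher and 2 lower at an unadjusted p under 0.05, beside 6.01% and 6.95% of all genes. Their median log2 fold change was 0.38, beside 0.02 over all genes.

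**Figure D4:**
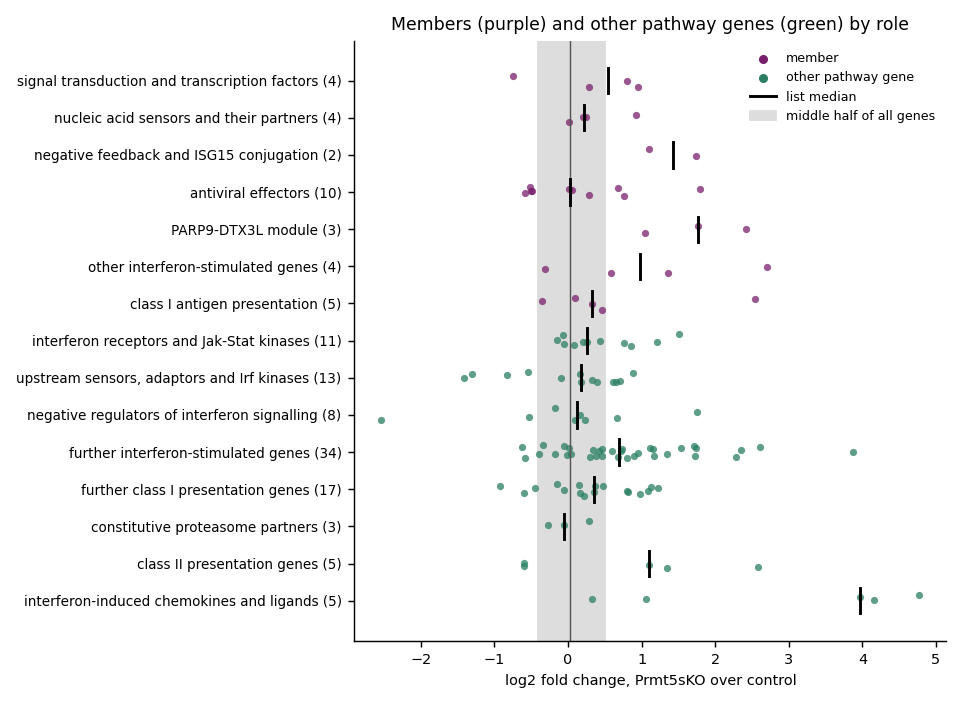
Log2 fold change of Prmt5sKO over control (horizontal axis) for the tested members (purple) and the other pathway genes (green) by role, with the number tested in brackets, a black bar at each list's median and the grey band between the quartiles of all genes, from -0.40 to 0.50. The Parp9 and Dtx3l group lies wholly to the right of the band, while the antiviral effectors have their median of 0.03 inside it.

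The promoter matches were set beside these values, as a description. Of all genes tested by limma-voom, 6.01% were higher and 6.95% lower at an unadjusted p under 0.05. Of the 11 members tested by limma-voom with an ISRE core, 0 had an unadjusted p under 0.05, and their median log2 fold change was 0.46. Of the 16 with a window but no ISRE core, 4 had such a p (Dtx3l, Irf1, Samhd1 and Tap1), and their median was 0.18. With the GAS core, 2 of 7 had such a p (Irf1 and Samhd1), on opposite sides of control. The median was -0.36 for the 7 with a GAS core and 0.39 for the 20 with a window but no GAS core. The promoters of Parp14 and Ifi27 were not analysed here.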

How the data were processed

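RNA of 2 control and 2 Prmt5sKO libraries of cultured MuSC was sequenced on Ion Torrent Proton. The authors trimmed reads with Reaper, aligned them to GRCm38 with STAR 2.4.0a, counted them per gene, leaving out reads with several positions or overlapping several genes, and ran DESeq2 1.62, per the submitters' processing notes and the study's methods. The signal values the authors deposited are group means of counts divided by DESeq2 size factors. The deposited log2 fold changes, their standard errors and p-values, from the authors' own comparison, were not used.

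Each group mean adds whole reads of 2 libraries, each weighted by its own step, so the reads per library could be recovered for 20065 of 20065 genes in both groups. Recovery was tested on simulated data and was exact. Replicate numbers could not be given to the libraries. Reads were normalized by TMM (own code, trims of 30% and 5%), filtered at a mean normalized count of at least 5, and compared by limma-voom (limma 3.58.1, R 4.3.3) with Benjamini-Hochberg adjustment over 16212 genes. Calls need an adjusted p of at most 0.05 and at least a 2-fold change. Count models were not fitted to the recovered reads, and what they would call was not examined. On simulated counts with a log2 change of 2 in 200 genes, 199 were called at a dispersion of 0.01 and 196 at 0.03, with 1 and 2 unchanged genes called. The real libraries of a group also differed in sex-linked and muscle genes, which the simulation did not include. It checks the code and does not give the power of the test in these data. An exact permutation test of 2 against 2 libraries cannot go below p = 0.333.

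Symbols and coordinates came from GENCODE M21, with 19782 identifiers matched, and promoters from RefSeq. Library totals set the precision, with 1 read worth between 0.741 and 1.30 normalized counts. The members, pathway lists and marker lists were chosen with earlier results of these data known. Values in every library are given for members with an unadjusted p under 0.05, with at least a 2-fold change and separate groups, with a 4-fold difference between the libraries of a group, or among the 5 highest or the lowest levels, and for at most 4 genes of each other list, those with the smallest p and its defining genes. Alternatives were other scalings, filters and tests, both pairings of libraries, each library left out, and the members without near-identical copies. For 1 of the defining genes no value is given here.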

Additional observations from a re-analysis of the deposited data

How the results depend on the processing

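No member reached an adjusted p of at most 0.05 under any of the settings run. The count over all genes was 0 in the reported fit and 346 with the crossed replicate block, in which a deeper library is paired with a shallower one, so that libraries with like Xist levels are joined. Under it Rsad2 and Xaf1 had unadjusted p-values of 0.0397 and 0.0494 (limma-voom), and with the deeper libraries paired Irf1 had 0.0642. The count over all genes ranged from 0 to 489 when 1 library was left out, with 489 without the deeper and 55 without the shallower Prmt5sKO library; the cause was not tested. The median log2 fold change over the members was 0.39, stayed between 0.33 and 0.52 under other scalings, filters, tests, blocks and without near-identical copies, and ranged from 0.40 to 0.80 with 1 library left out. Members higher at an unadjusted p under 0.05 numbered 5, with 4 and 7 under the pairings of the replicate block and 1 to 8 with 1 library left out. The 1 lower member, Samhd1, gave 0 with library size only, upper-quartile scaling, no filter, limma-trend with a prior count of 2 or 0.5, and both replicate blocks, and 0 to 1 with 1 library left out. Its log2 fold change stayed between -0.60 and -0.40. Direction turned for 10 of 32 members with 1 library left out, none of them with an unadjusted p under 0.05 in the reported fit. The log2 fold changes then ranged from -0.13 to 0.63 for Irf9, -0.17 to 0.19 for Trim25, -0.89 to 1.75 for Ifit1, -0.92 to 1.13 for Oasl1, -1.51 to 0.59 for Cmpk2, -0.49 to 0.82 for Gbp3, -0.092 to 1.35 for Ifi35, -0.70 to 0.0033 for Rtp4, -0.030 to 0.65 for H2-K1 and -0.045 to 0.21 for H2-D1. It also turned for Trim25 (-0.0012) and Gbp3 (-0.0062) under upper-quartile scaling, for Gbp3 under limma-trend (-0.028 and -0.073) and for Oasl1 under the replicate blocks (-0.22 with the deeper libraries paired and -0.12 crossed). Scaling to library size alone moved the median of all genes from 0.02 to 0.13. Where a library was left out, the lone library of its group was assumed to vary like the others. The numbers of the labels could not be tied to libraries. Deviations of the deeper libraries of both groups correlated at -0.21, over 11571 genes with at least 20 reads. With 2 libraries per group, the value of 0.21 for the crossed pairing is the same number with its sign reversed. Depth limits 9 of 32 members, whose mean was under 20.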

Other observations

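Beside the class I genes, 7 of 10 class II presentation genes were found and 5 tested. In limma-voom 0 had an unadjusted p under 0.05, where 6.01% of all genes were higher and 6.95% lower. Their median log2 fold change was 1.09, and 3 of the 5 were at least 2-fold higher with both Prmt5sKO libraries above both controls (H2-Eb1, H2-DMa and H2-DMb1, named after their values were seen). Of all genes, 12.8% were at least 2-fold higher and 25.2% had both Prmt5sKO libraries above both controls. Cd74, the invariant chain that escorts class II molecules, was at 11.3 and 33.7 normalized counts in control and at 7.41 and 24.1 in Prmt5sKO. Its groups overlapped, and the libraries of each group differed by more than the groups did.

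Of 9 interferon-induced chemokines and ligands, 6 were found and 5 tested, with 3 higher at an unadjusted p under 0.05, beside 6.01% of all genes. Il15, a cytokine made by muscle among other tissues, had 0 reads in both control libraries and was at 17.0 and 15.1 normalized counts in Prmt5sKO. The mean of Prmt5sKO was 8.82-fold a floor of 3 reads over the control group, and the adjusted p was 0.276 in limma-voom. That floor covers counting error in control only, not the spread between libraries, so 8.82 is no firm minimum. Ccl2, which attracts monocytes, was at 2.26 and 0 in control and at 18.5 and 32.2 in Prmt5sKO. Ccl7, of the same cluster, was at 3.39 and 0 in control and at 31.1 and 20.1 in Prmt5sKO. The control values of both chemokines stand for at most 3 reads, so no fold change is given.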
